A study of Mus musculus with 6 samples.

Results

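The hormone and identity genes of the pancreatic delta cell were followed in islet RNA from mice in which Klf4 was targeted in alpha cells. The set holds 6 genes of the 55536 in the count table, found by symbol, and all 6 were detected in every library: Sst, Hhex, Rbp4, Ghsr, Lepr and Crhr2. Control mice were of the genotype Klf4+/+;Gcg-iCre and knockout mice of the genotype Klf4fl/fl;Gcg-iCre, so both groups carried the Cre driver. The strain is written C57B1/6J, and neither age nor sex is given in the sources used here. Each group has 3 libraries of polyadenylated RNA from whole islets. Cre from a glucagon driver acts in glucagon-producing cells, so delta cells were not the targeted cells, and delta-cell transcripts were measured mixed with those of all other islet cells. In such bulk RNA, fewer delta cells and less RNA per delta cell cannot be told apart.

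Delta cells secrete somatostatin, which acts on neighbouring alpha and beta cells through inhibitory G-protein-coupled receptors and restrains the release of glucagon and insulin. Hhex is the homeodomain transcription factor required for delta cells to form and keep their identity. Delta cells in turn listen to other signals: ghrelin acts on them through Ghsr, and urocortin 3, released by beta cells together with insulin, drives somatostatin release as part of a negative feedback loop. Rbp4 encodes the retinol carrier of the blood and Lepr the leptin receptor; both are enriched in delta cells within the islet and are also made by cells outside it.

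The stretches upstream of 3 of the genes are shown because Sst is the defining hormone gene, Hhex the identity factor and Ghsr the gene with the largest measured difference. Each is the 250 bases before the transcription start in RefSeq (GRCm38.p6), at chr16:23890845-23891094 on the minus strand for Sst, chr19:37434591-37434840 on the plus strand for Hhex and chr3:27371101-27371350 on the plus strand for Ghsr. Capitals mark the cyclic AMP response element TGACGTCA and the KLF box CACCC, read on both strands.
Sst: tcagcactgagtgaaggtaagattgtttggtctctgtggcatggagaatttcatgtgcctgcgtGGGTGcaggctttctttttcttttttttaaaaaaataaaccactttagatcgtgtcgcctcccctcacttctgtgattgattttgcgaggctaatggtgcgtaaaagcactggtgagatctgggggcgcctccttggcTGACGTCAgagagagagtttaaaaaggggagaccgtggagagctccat
Hhex: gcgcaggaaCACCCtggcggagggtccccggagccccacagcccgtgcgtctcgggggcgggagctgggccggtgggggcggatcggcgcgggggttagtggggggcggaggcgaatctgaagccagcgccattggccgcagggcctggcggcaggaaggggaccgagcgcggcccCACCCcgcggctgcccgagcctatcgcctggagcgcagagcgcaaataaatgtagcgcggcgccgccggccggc
Ghsr: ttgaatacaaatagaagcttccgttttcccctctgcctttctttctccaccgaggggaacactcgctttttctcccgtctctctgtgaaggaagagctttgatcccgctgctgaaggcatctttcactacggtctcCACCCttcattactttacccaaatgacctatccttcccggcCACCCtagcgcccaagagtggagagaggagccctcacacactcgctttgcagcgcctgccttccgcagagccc

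All 6 genes matched the RefSeq promoter table, with 8 start sites between them, and the 300 bases from 250 before to 50 after each start were searched for 4 letter strings that do not overlap one another in these windows. TGACGTCA, the element through which cyclic AMP acts on the somatostatin gene, was found once, 48 bases upstream of the Sst start, and in none of the other windows; 1.79% of all 32851 promoters hold it. CACCC, the core bound by Kruppel-like factors, was found in the Sst, Hhex, Ghsr and Crhr2 windows and at 1 of 2 starts each of Rbp4 and Lepr, against 57.5% of all promoters. TATAAA was found in 1 Rbp4 window and in the Crhr2 window (13.6% of all promoters), and TAATTA in none (5.29% of all). A match is a description of the letters only.

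Libraries held 101277200 to 110243918 counts. Klf4 itself was at 3148, 2879 and 2015 normalized counts (counts divided by DESeq2 size factors) in controls 1, 2 and 3 and 2340, 2540 and 2277 in knockouts 1, 2 and 3. Its groups overlapped, and whole-islet counts do not show how much was lost from alpha cells. Xist was at 77938 to 108105 normalized counts in the controls and 12.4 to 30.2 in the knockouts, while the Y-linked gene Ddx3y was at 0 in every control and at 5599 to 6265 in the knockouts. The sex-linked transcripts thus divide the libraries exactly as the genotypes do, sex and genotype cannot be told apart, and no comparison within a sex can be made. The defining islet hormones were abundant in all libraries, and the lowest value of Gcg was 2855551 normalized counts. Nothing in the labels says that replicates came from separate animals, so p-values measure the spread between these libraries only.

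DESeq2 called 0 of the 6 delta-cell genes at an adjusted p of 0.05, while 2.19% of the 17797 genes with an adjusted p were called, 1.53% as higher and 0.657% as lower in knockouts. At an unadjusted p under 0.05 there was 1 of 6, Ghsr, against 11.5% of all genes, or 5.03% in its direction. The edgeR quasi-likelihood test likewise called 0 of 6 after adjustment (0.115% of all genes) and 1 of 6, again Ghsr, unadjusted (9.48%). Control and knockout ranges overlapped for all 6, whereas 17.3% of genes tested had ranges that did not. The median log2 fold change of the 6 was -0.03, with 3 positive and 3 negative, beside -0.0061 over all genes tested.

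**Figure D1:**
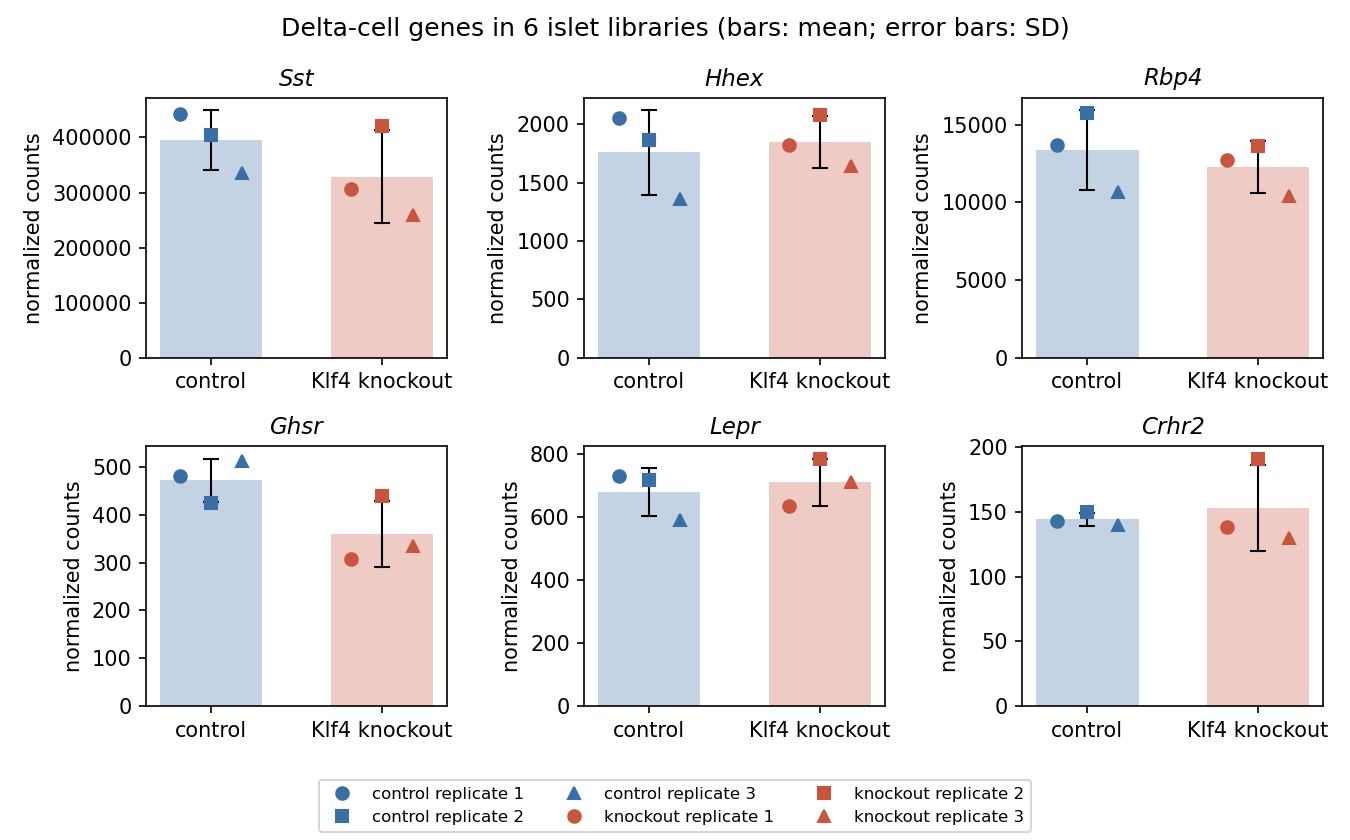
Normalized counts of the 6 delta-cell genes (y axes, each from 0) in control and Klf4 knockout islets. Points are single libraries, bars are group means and error bars SD (n = 3). Knockout replicate 2 is the highest knockout library in all 6 panels.

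Somatostatin was by far the most abundant of the set. Sst (ENSMUSG00000004366, chromosome 16, 23889573 to 23890958, minus strand, GRCm38) took 0.252% to 0.437% of all counts. It was at 443209, 404907 and 335783 normalized counts in controls 1, 2 and 3 and 307041, 421489 and 258470 in knockouts 1, 2 and 3. Knockout replicates 1 and 3 lay below every control, but knockout replicate 2 lay above 2 of the 3 controls. The means were 394633 ± 54445 and 329000 ± 83699 (SD, n = 3 each), which gave a log2 fold change of -0.26 with an SE of 0.24 (DESeq2 adjusted p = 0.787). The 95% interval reached from a change of -39.5% to one of 15.0%. Without knockout replicate 2 Sst passed as lower, at a log2 fold change of -0.48 (DESeq2 adjusted p = 0.0273, within a range of 0.0273 to 0.990 over 12 alternatives). Counting error at these counts was at most 0.196% of the value, far below the spread between libraries.

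Hhex, the delta-cell transcription factor (ENSMUSG00000024986, chromosome 19, 37434810 to 37440731, plus strand), stayed close to its control level. Controls 1, 2 and 3 were at 2050, 1867 and 1356 normalized counts and knockouts 1, 2 and 3 at 1819, 2077 and 1639. The lowest of all 6 libraries was a control and the highest a knockout. Means of 1758 ± 360 and 1845 ± 220 (SD, n = 3 each) gave a log2 fold change of 0.07 with an SE of 0.15 (DESeq2 adjusted p = 0.949), with a 95% interval from -14.8% to 29.2%. Hhex is also made by endothelial and duct cells. The summed endothelial markers ran from 96779 to 112443 normalized counts in controls and from 104692 to 120171 in knockouts. All 9 of them had positive log2 fold changes and 0 were called (2.19% of all genes). The summed duct markers ran from 29131 to 32639 and from 34934 to 39426, and 2 of 7, Krt7 and Muc1, were called higher (1.53% of all genes). The part of either cell type in the Hhex value was not tested.

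The retinol carrier gene Rbp4 (ENSMUSG00000024990, chromosome 19, 38116629 to 38125281, minus strand) was second in abundance. Its level was 13712, 15729 and 10668 normalized counts in controls 1, 2 and 3 and 12746, 13649 and 10419 in knockout replicates 1 to 3. The knockout values lay almost wholly within the control range. Means were 13370 ± 2548 and 12271 ± 1667 (SD, n = 3 each), which gave a log2 fold change of -0.12 with an SE of 0.14 (DESeq2 adjusted p = 0.845; 95% interval -23.9% to 10.7%). Hepatocytes are the main producers of Rbp4 in the body, and hepatocyte transcripts were uneven here: the 12 markers summed to 418 to 634 normalized counts in controls and to 112320, 4037 and 478 in knockouts 1, 2 and 3, so that knockouts 1 and 2 were above every control and knockout 3 within their range. When single libraries were left out, the log2 fold change of Rbp4 ran from -0.26 to 0.0092. It was -0.15, -0.21 and -0.019 without knockout replicates 1, 2 and 3. Adipocytes also make Rbp4. Of their 5 markers Lep was at 0 in every library, Adipoq, Plin1 and Cidec were at 0 to 16.5 normalized counts, and Fabp4, which endothelial cells also express, rose from a mean of 1728 to 2384 (log2 fold change 0.46, DESeq2 adjusted p = 0.0118). The part of either cell type in the Rbp4 value was not tested.

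Ghsr, the ghrelin receptor (ENSMUSG00000051136, chromosome 3, 27371351 to 27378010, plus strand), showed the largest difference of the set. Controls 1, 2 and 3 were at 481, 423 and 511 normalized counts and knockouts 1, 2 and 3 at 308, 438 and 335. Knockout replicates 1 and 3 were below every control, and knockout replicate 2 was above 1 control, so the groups overlapped by that library. The means of 472 ± 44.7 and 360 ± 68.8 (SD, n = 3 each) gave a log2 fold change of -0.39 with an SE of 0.18, a difference of -23.6% with a 95% interval from -40.2% to -2.55% for this gene taken alone. It did not pass after adjustment over all genes (DESeq2 unadjusted p = 0.0302, adjusted p = 0.348; edgeR 0.0445 and 0.514). Over 12 alternatives the log2 fold change stayed negative, from -0.55 to -0.29, and the adjusted p ran from 0.0662 to 0.920.

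The leptin receptor Lepr (ENSMUSG00000057722, chromosome 4, 101717404 to 101815352, plus strand) was level. It stood at 729, 718 and 590 normalized counts in controls 1, 2 and 3 and 636, 784 and 711 in knockouts 1, 2 and 3. As with Hhex, the lowest library was control replicate 3 and the highest knockout replicate 2. The means of 679 ± 77.4 and 710 ± 74.1 (SD, n = 3 each) gave a log2 fold change of 0.06 with an SE of 0.14 (DESeq2 adjusted p = 0.951; 95% interval -13.9% to 26.9%).

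Crhr2, the receptor for urocortins (ENSMUSG00000003476, chromosome 6, 55090049 to 55133016, minus strand), was the scarcest. Its normalized counts were 143, 150 and 140 in controls 1, 2 and 3 and 138, 191 and 130 in knockout replicates 1 to 3. Knockout replicate 2 stood apart from the other 5 libraries, which lay between 130 and 150. With means of 144 ± 5.01 and 153 ± 33.2 (SD, n = 3 each), the log2 fold change was 0.08 with an SE of 0.25 (DESeq2 adjusted p = 0.962). At 130 to 185 raw counts the counting error, taking each count as independent, is 7.35% to 8.77% of the value, above the spread of the controls (a coefficient of variation of 3.48%) and below that of the knockouts (21.7%). The 95% interval of the difference was -24.3% to 48.0%, the widest of the 6. Crhr2 is also made by smooth muscle. The 7 pericyte and smooth muscle markers, most of whose counts were of the pericyte gene Rgs5, summed to 41036 to 46206 normalized counts in controls and 38524 to 44029 in knockouts, and 0 of the 6 tested were called (2.19% of all genes). The smooth muscle genes Myh11 and Acta2 had log2 fold changes of -0.25 and -0.29. Their DESeq2 unadjusted p-values were 0.00302 and 0.00789, adjusted 0.0925 and 0.168. Their knockouts were all below their controls, as for 8.23% of all genes. Pdgfrb, at 0.13, had every knockout above every control, so groups did not overlap for 3 of the 6 tested (17.3% of all genes). Tagln (-0.19), Rgs5 (-0.07), Cspg4 (0.08) and the scarce Cnn1 (0.12) overlapped. The part of these cells in the Crhr2 value was not tested.

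Levels were set side by side per kilobase of merged exons, on the scale of normalized counts per kilobase. In controls Sst stood at 547341 ± 75513, Rbp4 at 9955 ± 1897, Hhex at 348 ± 71.2, Ghsr at 106 ± 10.1, Lepr at 96.3 ± 10.98 and Crhr2 at 28.2 ± 0.98 (SD, n = 3 each). The order was clear of the spread between libraries except for Ghsr and Lepr, whose control ranges overlapped. In knockouts the means were 456311 ± 116087, 9137 ± 1241, 365 ± 43.6, 81.3 ± 15.5, 100.7 ± 10.5 and 29.9 ± 6.48, so that Lepr lay above Ghsr, again with overlapping ranges. None of the 6 genes overlaps another annotated gene in GENCODE M21, so an unknown strand setting in counting bears little on them.

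**Figure D2:**
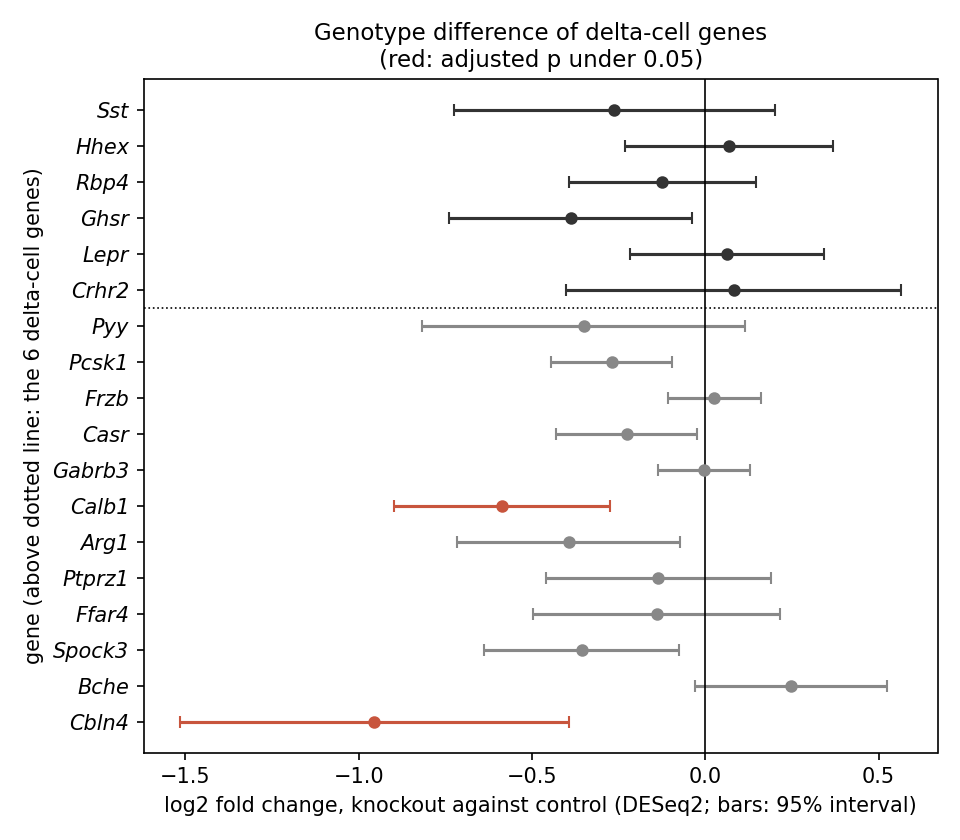
Log2 fold change of knockout against control (x axis, DESeq2, points) with 95% intervals (bars) for the 6 delta-cell genes, above the dotted line, and 12 further delta-cell genes, below it. Red marks an adjusted p under 0.05, reached by Calb1 and Cbln4 only; of the 6, the interval of Ghsr alone lies wholly below 0.

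A second list of 12 genes that are also known from delta cells was examined to see whether the picture held beyond the 6. In it 2 genes fell, 0 rose and the other 10 did not pass (DESeq2; 0.657% of all genes passed downward), 6 of 12 had an unadjusted p under 0.05 (11.5% of all genes), and 10 of 12 fold changes were negative against 51.6% of all genes. The median log2 fold change was -0.25. Calb1, which encodes the calcium buffer calbindin, was at 7077, 7256 and 6049 normalized counts in controls 1, 2 and 3 and 4221, 5898 and 3451 in knockouts 1, 2 and 3. Every knockout was below every control, as for 8.23% of all genes, and the log2 fold change was -0.59 with an SE of 0.16 (DESeq2 adjusted p = 0.0168). Cbln4, which encodes the secreted synapse organizer cerebellin 4, was at 359, 326 and 227 normalized counts in the controls and at 157, 212 and 102 in the knockouts, again with no overlap (log2 fold change -0.96 with an SE of 0.29, DESeq2 adjusted p = 0.0416). These calls were fragile. edgeR made 0 calls in the list, with adjusted p-values of 0.327 for Calb1 and 0.337 for Cbln4, although 6 of the 12 had an unadjusted p under 0.05 there too (9.48% of all genes). In DESeq2 0 of 12 passed without control replicate 1, without knockout replicate 1 or without knockout replicate 3. Without control replicate 2 the count was 1 of 12, and neither Calb1 (adjusted p = 0.653) nor Cbln4 (0.305) passed. Without control replicate 3 the count was 3 of 12. Calb1 did not pass there, at a log2 fold change of -0.66 (adjusted p = 0.191), while Cbln4 did (adjusted p = 0.00898). Over 12 alternatives the log2 fold change ran from -0.82 to -0.43 for Calb1 and from -1.23 to -0.72 for Cbln4. The adjusted p ran from 1.62e-07 to 0.653 for Calb1 and from 0.00691 to 0.337 for Cbln4.

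Among the most abundant genes of that list, Pyy, the peptide YY gene, had a log2 fold change of -0.35 with an SE of 0.24 (DESeq2 adjusted p = 0.648), the prohormone convertase gene Pcsk1 of -0.27 ± 0.09 (adjusted p = 0.0827) and Frzb, a secreted Wnt antagonist, of 0.03 ± 0.07 (adjusted p = 0.959). Several of these genes are not exclusive to delta cells, and Pcsk1 is abundant in beta cells. The calcium-sensing receptor gene Casr, Arg1 and Spock3 had log2 fold changes of -0.23, -0.39 and -0.36, and Bche of 0.25, and none of them passed. Groups did not overlap for 5 of the 12, against 17.3% of all genes. Knockouts were below controls for Calb1, Cbln4, Pcsk1 and Casr, and above them for Bche.

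The delta-cell genes tended to be high or low in the same libraries. Knockout replicate 2 was the highest of the 3 knockouts for 6 of 6 genes and for 10 of the 12 further delta-cell genes, against 34.3% of all genes tested. Control replicate 3 was the lowest control for 5 of 6, all but Ghsr, and for 7 of 12, against 36.2%. Knockout replicate 3 was the lowest knockout for 4 of 6 and for 9 of 12, against 36.1%. These positions were noticed after the values were seen and were not tested, and markers of other cell types shared some of them: knockout replicate 2 was also the highest knockout for 7 of 7 acinar markers and 5 of 6 alpha-cell markers, and control replicate 3 the lowest control for 5 of 7 and 5 of 6. Among beta-cell markers these counts were 4 of 8 and 2 of 8. Knockout replicate 3 was the lowest knockout for 6 of 7 acinar and 5 of 8 beta-cell markers, but for 1 of 6 alpha-cell markers.

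**Figure D3:**
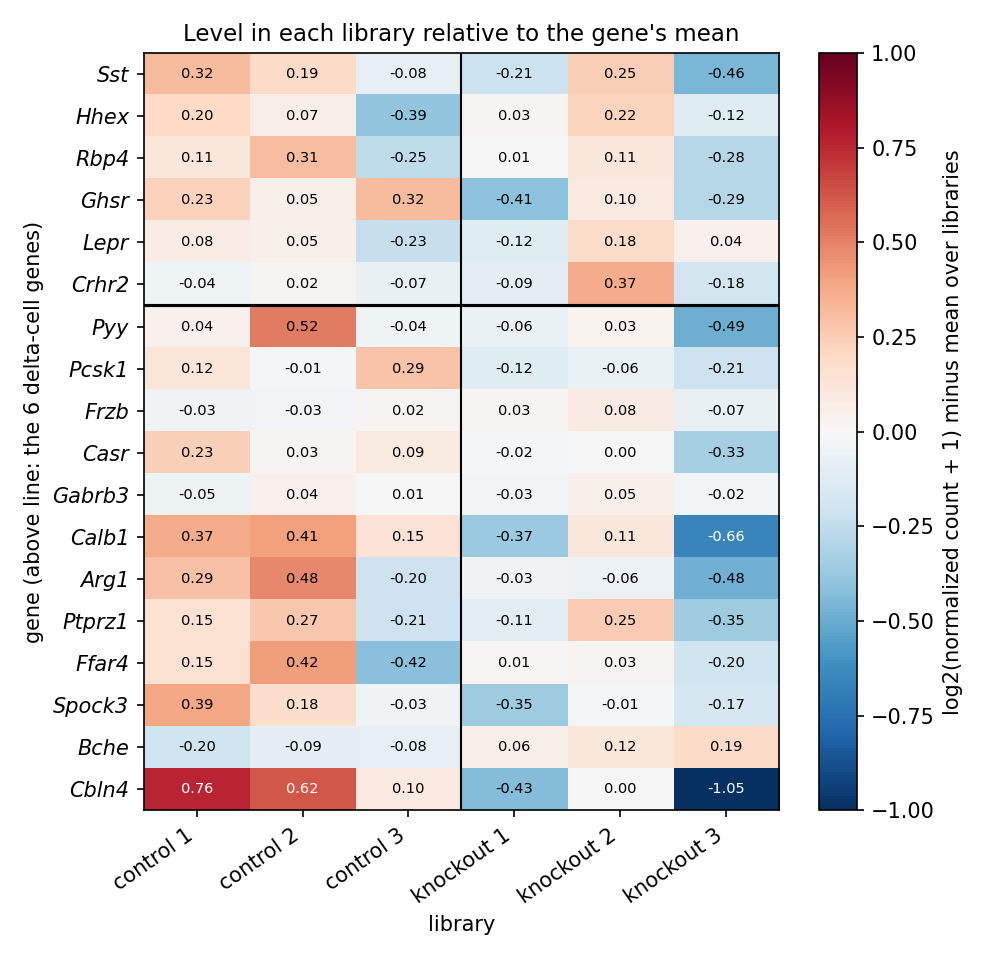
Deviation of each gene from its own mean over the 6 libraries, in log2(normalized count + 1) (colour and printed values), for the 6 delta-cell genes above the line and the 12 further genes below it. Sst runs from 0.32 in control replicate 1 to -0.46 in knockout replicate 3, while Hhex, Lepr and Crhr2 are highest in knockout replicate 2.

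The spread within groups differed among the genes. The pooled within-group SD of log2 levels was 0.29 for Sst, 0.25 for Hhex, 0.25 for Rbp4, 0.21 for Ghsr, 0.16 for Lepr and 0.21 for Crhr2. As a description, it exceeded that of 97.2% of the 500 genes nearest in mean level for Rbp4, of 92.4% for Hhex and of 88.1% of the 260 nearest for Sst, but only of 64.4%, 54.6% and 28.6% for Ghsr, Lepr and Crhr2. The 3 most abundant delta-cell genes were thus among the more variable genes of their level between libraries of 1 genotype.

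Likeness to Sst was measured by the root-mean-square difference between log2 profiles centred on their means over the 6 libraries, among genes with a mean of at least 200 normalized counts. The 5 closest genes were Svopl, Tiam1, Dpp6, Nptx1 and Efnb3, at 0.075, 0.082, 0.086, 0.086 and 0.088, where a flat profile would be at 0.277. Nptx1, a secreted pentraxin of synapses, was for example at 4711, 5153 and 3592 normalized counts in the controls and at 3402, 4817 and 2918 in the knockouts. None of these 5 passed between genotypes (DESeq2 adjusted p from 0.313 to 0.846). Among 13154 genes ranked, Ptprz1, a receptor phosphatase gene of the longer delta-cell list, was at place 23, Rbp4 at 236, Ghsr at 798, Hhex at 986 and Lepr at 1920; Crhr2 was below the level limit. The other islet hormones Ppy, Gcg, Ins2 and Ins1 were at 972, 1817, 7123 and 10137. These are descriptions over 6 libraries that share their totals and islet preparations.

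Within each library, the other 5 genes were set against Sst to see whether their proportion to the hormone held. The log2 ratio of Hhex to Sst was -7.76, -7.76 and -7.95 in controls 1, 2 and 3 and -7.40, -7.66 and -7.30 in knockout replicates 1 to 3, a difference of 0.37 between group means. Lepr (0.35) and Crhr2 (0.35) likewise had every knockout ratio above every control ratio, as did 7.57% of all genes set against Sst (7.91% did not overlap in either direction). Rbp4 (0.17) and Ghsr (-0.12) overlapped. The exact two-sided permutation test gave p = 0.1 for Hhex, Lepr and Crhr2, the smallest that 3 against 3 allows, 0.2 for Rbp4 and 0.5 for Ghsr, and adjusted over these 5 relations 0.167, 0.25 and 0.5. All 5 ratios share the Sst values, so they are not separate pieces of evidence.

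**Figure D4:**
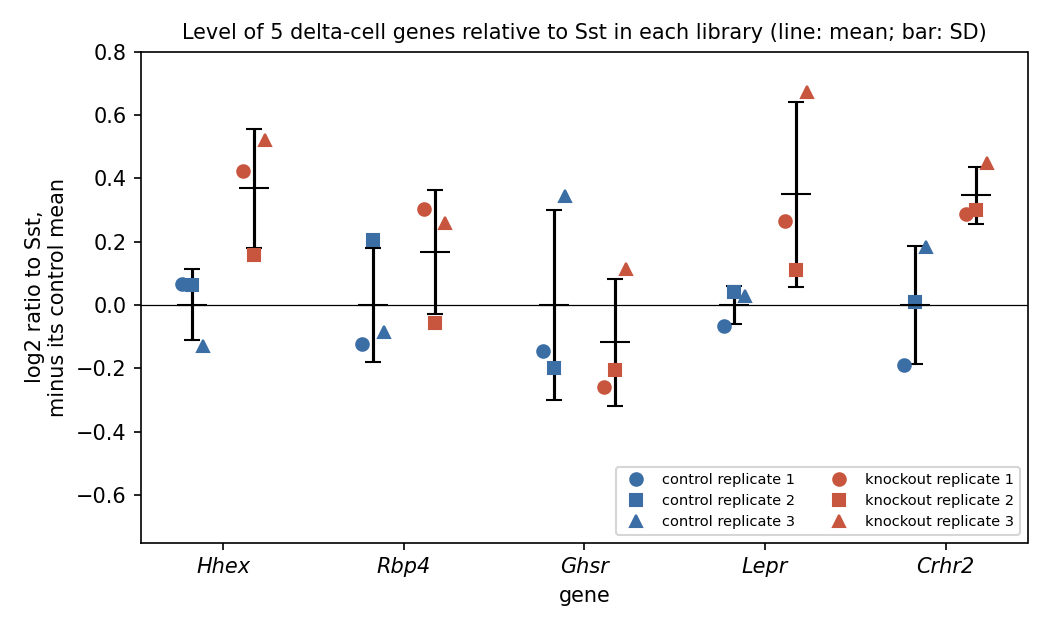
Log2 ratio of each of 5 delta-cell genes to Sst in the same library, minus the control mean of that ratio (y axis). Points are libraries, lines means and bars SD (n = 3). The knockout points of Hhex, Lepr and Crhr2 lie above all control points, and those of Rbp4 and Ghsr overlap them.

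Genes around each member were then counted, by pathway. Of the somatostatin receptors and the related peptide gene Cort, 3 of 6 were abundant enough for an adjusted p and 0 passed in DESeq2 (1 of the 3 at an unadjusted p under 0.05, and in edgeR 2 of all 6, Sstr2 and Sstr5, against 11.5% and 9.48% of all genes). Sstr3, the most abundant, was at 28865 to 42190 normalized counts in controls and 39673 to 41255 in knockouts. Sstr2, the receptor through which somatostatin acts on alpha cells, was at 317, 459 and 424 normalized counts in controls 1, 2 and 3 and 507, 698 and 615 in knockouts 1, 2 and 3. Its knockouts were all above its controls, yet the log2 fold change of 0.60 with an SE of 0.19 was just short of the threshold (DESeq2 adjusted p = 0.0541, edgeR 0.335). Sstr1 went the other way, with every knockout below every control and a log2 fold change of -0.30 with an SE of 0.25 (DESeq2 adjusted p = 0.764). Groups thus did not overlap for 2 of the 3 tested, against 17.3% of all genes. Sstr4, Sstr5 and Cort held at most 17.9 normalized counts in any library.

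Genes that process and store prosomatostatin and other prohormones did not pass either. Of 8 such genes 0 were called by DESeq2 or edgeR (2 at an unadjusted p under 0.05 in each, against 11.5% and 9.48% of all genes), with a median log2 fold change of -0.10. The most abundant were Chga, Scg2 and Pcsk2, a chromogranin, a secretogranin and a convertase, at log2 fold changes of -0.15, 0.07 and -0.14. These genes are active in all islet endocrine cells.

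On the ghrelin side, the ligand gene Ghrl was at 958, 1341 and 607 normalized counts in controls 1, 2 and 3 and 1057, 951 and 597 in knockouts 1, 2 and 3 (log2 fold change -0.16 with an SE of 0.40, DESeq2 adjusted p = 0.958). Of the 4 tested genes of this pathway 0 passed in DESeq2 or edgeR, and 0 at an unadjusted p under 0.05 (11.5% and 9.48% of all genes), with a median of -0.05. Mrap2, an accessory protein of the receptor, had a log2 fold change of 0.05, the G-protein genes Gnaq and Gna11 of -0.03 and -0.07, and Mboat4, the enzyme that acylates ghrelin, held at most 13.2 normalized counts.

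On the leptin side, Lep itself was at 0 counts in all 6 libraries, which allows up to 0.0296 CPM (counts of the gene relative to the library total, for 3 counts, counting error only). All 6 tested genes of the pathway had positive log2 fold changes, with a median of 0.13, where 51.6% of all genes had negative ones. DESeq2 and edgeR called 0, and 3 and 2 had an unadjusted p under 0.05, against 11.5% and 9.48% of all genes. Stat3, the factor activated by the receptor, had a log2 fold change of 0.28 with an SE of 0.13 (DESeq2 adjusted p = 0.343), Ptpn1 of 0.17 ± 0.07 (adjusted p = 0.206) and Sh2b1 of 0.09 ± 0.07 (adjusted p = 0.755). The largest was that of Socs3, a feedback inhibitor of the receptor, at 0.53 with an SE of 0.17 (DESeq2 unadjusted p = 0.00181, adjusted p = 0.0692). Leprot, the neighbour of Lepr, was level at 0.05 with an SE of 0.07 (DESeq2 adjusted p = 0.912). These genes are expressed in most cell types, so they do not report on delta cells alone.

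For the urocortin loop, Ucn3 was at 52210, 57895 and 58762 normalized counts in controls 1, 2 and 3 and 52796, 50794 and 47110 in knockouts 1, 2 and 3. The ranges overlapped slightly, and the log2 fold change of -0.16 with an SE of 0.08 did not pass (DESeq2 adjusted p = 0.375). Crhr1 had a log2 fold change of 0.19 with an SE of 0.31 (adjusted p = 0.920) and the binding protein gene Crhbp of 0.76 ± 0.40 (adjusted p = 0.470). Of the 3 tested genes 0 passed in DESeq2 or edgeR (1 and 0 at an unadjusted p under 0.05, against 11.5% and 9.48% of all genes), with a median of 0.19; Ucn, Ucn2 and Crh held at most 9.44 normalized counts.

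Among the pathway lists, only that of the retinol genes around Rbp4 held calls. Of 11 tested, 2 rose and 1 fell in DESeq2 (1.53% and 0.657% of all genes), 6 had an unadjusted p under 0.05 (11.5% of all genes) and the median log2 fold change was 0.04; edgeR called 0, with 6 of the 13 listed at an unadjusted p under 0.05 (9.48% of all genes). Ttr, which encodes the partner that carries Rbp4 in plasma and is abundant in alpha cells, was at 140595, 200636 and 185874 normalized counts in controls 1, 2 and 3 and 115093, 140403 and 99793 in knockouts 1, 2 and 3, and fell by 0.57 on the log2 scale (SE 0.14, DESeq2 adjusted p = 0.00535). Aldh1a1, which makes retinoic acid, was at 264, 404 and 472 normalized counts in controls 1, 2 and 3 and 835, 643 and 679 in knockouts 1, 2 and 3, a log2 fold change of 0.92 with an SE of 0.21 (adjusted p = 0.00163). Cyp26b1, which degrades retinoic acid, rose from 114, 144 and 225 to 374, 264 and 485 normalized counts, a log2 fold change of 1.22 with an SE of 0.29 (adjusted p = 0.00316). The retinoic acid receptor genes Rarg and Rara had log2 fold changes of 0.04 and 0.12 and did not pass. The other receptor gene, Rarb, did not pass either, at a log2 fold change of -0.57 with an SE of 0.28 (DESeq2 unadjusted p = 0.0425, adjusted p = 0.404). Its knockouts, at 68.0 to 85.8 normalized counts, were all below its controls, at 102 to 127, as for 8.23% of all genes. Aldh1a2 went the other way, with every knockout above every control, and did not pass. Its log2 fold change was 1.13 with an SE of 0.54 (DESeq2 unadjusted p = 0.0375, adjusted p = 0.383). Groups did not overlap for 5 of the 11 tested, against 17.3% of all genes. Fibroblast markers, whose cells can also make the enzymes of Aldh1a1 and Cyp26b1, moved the same way as these 2 genes. Of 6 such markers 5 were higher (1.53% of all genes). Their sum ran from 45917 to 61531 normalized counts in controls and from 90438 to 97229 in knockouts. Their part in the retinol result was not tested. Without knockout replicate 1 none of the 3 called genes passed, with DESeq2 adjusted p-values of 0.135 for Ttr, 0.110 for Aldh1a1 and 0.0746 for Cyp26b1. The log2 fold changes in that fit were -0.55, 0.80 and 1.22. Ttr also did not pass without control replicate 2, control replicate 3 or knockout replicate 3 (adjusted p = 0.161, 0.272 and 0.132), nor Cyp26b1 without control replicate 1, control replicate 2 or knockout replicate 3 (0.0586, 0.0805 and 0.141).

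The other cell types of the preparation give the setting of these values. Alpha-cell markers fell for 3 of 6 in DESeq2 (Gcg, Irx2 and Slc38a5) and rose for 0, and beta-cell markers fell for 1 of 8 (Nkx6-1), against 0.657% of all genes. Ppy did not pass, at a log2 fold change of -0.10. Acinar markers summed to 471987 to 947723 normalized counts in controls and 1203231 to 1714161 in knockouts, yet 0 of 7 passed in DESeq2 or edgeR, although 7 of 7 had an unadjusted p under 0.05 in both (11.5% and 9.48% of all genes). Of the hepatocyte markers 4 of 6 tested were called higher (1.53% of all genes), and the other 6 had no adjusted p. The called genes, Serpina3k, Ahsg, Apoa1 and Plg, were all highest in knockout 1. In knockouts 1, 2 and 3 Serpina3k was at 7530, 288 and 0 normalized counts and Apoa1 at 5967, 332 and 7.98. In knockout 3 Serpina3k was thus at 0, as in every control, and Apoa1 below every control. Ahsg and Plg had every knockout above every control. Alb, which DESeq2 gave no adjusted p, was at 51331, 1743 and 122 normalized counts in knockouts 1, 2 and 3 and at 103 to 213 in controls. Against 1.53% of all genes, one marker each rose among macrophage genes (Cd68, 1 of 6) and adipocyte genes (Fabp4, 1 of 1 tested). In edgeR the only calls in these 11 lists were 3 fibroblast genes. The part of these shifts in the delta-cell values was not tested.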

How the data were processed

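Polyadenylated RNA of isolated islets was sequenced in 6 libraries, and the authors deposited 1 table of raw counts per gene for all of them. Per the submitters' processing notes, FastQC, STAR, featureCounts and DESeq2 were named with the build mm10; versions, annotation, strand setting and handling of read pairs are not given in the sources used here. All 55536 identifiers and symbols match GENCODE M21 (GRCm38), from which coordinates and exon lengths were taken. All 6 columns were used.

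DESeq2 1.42.0 (R 4.3.3), named in the series' design text, was run on genes with at least 10 counts in total, with median-of-ratios size factors, a genotype term, the Wald test and Benjamini-Hochberg adjustment over all genes at 0.05. Group and replicate came from the sample titles. Intervals are 95% Wald intervals. The scripts were tested on simulated data. Alternatives were edgeR 4.0.16 with TMM, TMM or total-count scaling in DESeq2, no filter, a filter of at least 10 counts in at least 3 libraries, the replicate number as a block and each library left out, 12 in all. For genes outside the 6 these alternatives were added after their values were seen.

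The 6 genes and the 18 lists were chosen with earlier results of these data known, and no test over a list was made. All 6 genes are named. From the delta-cell and pathway lists, genes past the threshold and the 3 most abundant are named, with others named after their values were seen. Cell marker lists are given by counts, with some of their genes named after their values were seen. Replicate pairs within a group differed by 40.0 to 120.1 times the chi-square expected from counting; all 6 were counted as separate libraries.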

Additional observations from a re-analysis of the deposited data

How the results depend on the processing

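Each of the 6 delta-cell genes was recomputed under 12 alternatives, 72 values in all. Direction and call were as reported in 65; 1 became a call and 6 reversed, each on leaving out a library. Sst ranged from -0.48 to -0.12 on the log2 scale when single libraries were omitted, and passed without knockout replicate 2 at -0.48. Ghsr ranged from -0.55 to -0.29 and never passed. Hhex ranged from -0.086 to 0.19 and was negative without control replicate 3 (-0.086) or knockout replicate 2 (-0.023). Rbp4 ranged from -0.26 to 0.0092, positive without control replicate 2. Lepr ranged from -0.028 to 0.14, negative without control replicate 3 (-0.028) or knockout replicate 2 (-0.012), and Crhr2 from -0.11 to 0.19, negative without knockout replicate 2. For these, the cause was not tested. With the stricter filter the SE of Sst was 0.15 in place of 0.24 and its unadjusted p 0.0879, with an adjusted p of 0.542 (DESeq2).

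The number of genes called was 389 in DESeq2 and 29 in edgeR (24 higher and 5 lower, against 272 and 117, that is 82.8% against 69.9% higher). With single libraries omitted it lay between 153 and 952, lowest without knockout replicate 1 and highest without control replicate 3. With the replicate block 405 genes passed; no delta-cell gene of the 6 did, with Sst at -0.28 (adjusted p = 0.154), Ghsr at -0.40, Hhex at 0.084, Rbp4 at -0.11, Lepr at 0.065 and Crhr2 at 0.065, while 4 of the 12 further delta-cell genes passed in place of 2. Libraries of one number showed no shared deviation (correlations of -0.059 to 0.010 over 15811 genes), so the block rests on a number only. Scaling moved the median of all genes by under 0.01. Counting error exceeded the spread between controls, but not between knockouts, for Crhr2 alone among the 6.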

Other observations

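The counts lean towards even numbers where they are low. Of the values of genes with a mean of 10 to 100 counts, 78.5% were even, against 67.1% from 100 to 1000, 54.6% from 1000 to 10000 and 51.2% above. Among the delta-cell genes, Sst was even in 6 of 6 libraries, Crhr2 in 5, Hhex and Lepr in 4 each, Ghsr in 3 and Rbp4 in 2. Whether both ends of a read pair were counted was not tested, and the counting errors given take each count as independent.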
